A study of Mus musculus with 8 samples.

Results

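The genes described here copy DNA or prepare cells to copy it. They comprise 48 genes of the replication machinery and of entry into S phase, chosen by name, and 47 of them carry at least 1 array probe set annotated to that gene alone. Chaf1a, which encodes a subunit of the chromatin assembly factor CAF-1, has no such probe set and was not measured. The 47 genes have 103 such probe sets of the 45101 on the array, and all 47 were among the 16112 genes tested. Orc4 and Tyms each have 1 further probe set that carries several gene symbols and was not used. All 47 passed the filter on low signal on each of the 8 arrays, so none entered the tests through 1 group alone.

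The study profiled RNA of lung mesenchyme, the connective tissue in which the airways branch, of CD1 mouse embryos at e11.5 to e12.5 (days of gestation). It has 4 groups of 2 arrays each. Tip mesenchyme surrounds the growing branch ends and stalk mesenchyme the older airway, and both were taken for RNA directly after dissection. Further stalk pieces spent 12 h on culture plastic, in growth medium alone (control culture) or in growth medium to which WNT1, a secreted signal, was added at 400 ng/ml (Wnt1 culture). No allele or transgene is named for any group. The groups allow tip to be set against stalk, WNT1 against control medium, and each culture against uncultured stalk. The sources used here do not say whether the 2 arrays of a group came from separate litters, so p-values rest on array-to-array spread alone, part of which may be technical.

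Before S phase, the origin recognition complex (Orc1 to Orc6) marks replication origins, and Cdc6 and Cdt1 load onto it the ring-shaped MCM helicase (Mcm2 to Mcm7). Cyclin E drives the entry into S phase, when Mcm10, Cdc45 and the GINS proteins turn the loaded ring into a moving helicase, and primase, the polymerases alpha, delta and epsilon, the sliding clamp PCNA and its loader RFC copy the strands behind it. Many of these genes are transcribed late in G1 and in S phase under E2F factors, so their RNA is widely read as a sign of proliferation, which is high in the mesenchyme of the growing lung.

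The promoters of the genes are shown because E2F binding there is the textbook link between them. RefSeq, in build GRCm38.p6, gave the 250 bases before the transcription start for 40 of the 48 genes. An E2F-type motif was searched on both strands as TTTCCCGC, TTTCGCGC, TTTGCCGC or TTTGGCGC, and was found in 10 of these 40 genes (25%), against 583 of 27025 genes with a promoter in the reference (2.16%). The CCAAT box, searched as CCAAT on both strands, was found in 25 of 40 (62.5%), against 37.5% of all genes. Neither motif contains the other, and E2F matches on opposite strands can share bases. Of the 16 genes that fell in at least 1 culture comparison below, 13 have a promoter in the table and 2 of those hold an E2F match (15.4%), Cdc6 and Pola1, against 8 of the 27 other genes with a promoter (29.6%). The 27 include Chaf1a, which was not measured and holds no E2F match. The 4 promoters below are those of Cdc6 (chr11:98907901-98908150, plus strand), Pola1 (chrX:93632156-93632405, minus strand), and the 2 genes with more than 1 match, Mcm6 (chr1:128359706-128359955, minus strand) and Mcm5 (chr8:75109259-75109508, plus strand). Each is written from 250 bases upstream to the base before the start, with the E2F matches in capitals, read on either strand.
Cdc6: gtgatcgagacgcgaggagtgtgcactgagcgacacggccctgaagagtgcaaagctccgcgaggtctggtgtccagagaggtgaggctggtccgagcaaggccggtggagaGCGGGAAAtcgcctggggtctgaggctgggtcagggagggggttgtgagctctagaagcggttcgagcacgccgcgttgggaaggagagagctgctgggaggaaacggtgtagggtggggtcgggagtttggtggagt
Pola1: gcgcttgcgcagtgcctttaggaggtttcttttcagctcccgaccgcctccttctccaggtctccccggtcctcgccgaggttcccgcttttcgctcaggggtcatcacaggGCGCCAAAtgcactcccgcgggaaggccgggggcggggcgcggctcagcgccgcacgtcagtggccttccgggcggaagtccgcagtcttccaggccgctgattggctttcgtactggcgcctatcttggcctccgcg
Mcm6: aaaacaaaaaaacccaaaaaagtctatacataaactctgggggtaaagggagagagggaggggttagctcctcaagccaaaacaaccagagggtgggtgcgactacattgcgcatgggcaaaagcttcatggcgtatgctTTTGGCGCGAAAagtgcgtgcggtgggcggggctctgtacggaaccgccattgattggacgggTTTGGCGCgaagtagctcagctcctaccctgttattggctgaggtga
Mcm5: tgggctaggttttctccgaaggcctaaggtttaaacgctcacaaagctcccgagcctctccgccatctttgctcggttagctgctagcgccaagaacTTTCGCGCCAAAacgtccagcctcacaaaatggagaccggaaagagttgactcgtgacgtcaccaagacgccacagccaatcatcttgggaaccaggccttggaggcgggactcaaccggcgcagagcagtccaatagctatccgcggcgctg
In Cdc6 and in Pola1 the match lies 138 to 131 bases before the start, on the strand opposite to the gene. Mcm6 has 3 matches, 2 of which overlap on opposite strands, and the overlapping pair in Mcm5 spans 153 to 142 bases before its start. A match is a description of the letters and was not tested as a binding site.

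The values are MAS5 signals, brightness on a linear scale, and each array's 2% trimmed mean is 500. The array median, which that scaling leaves free, was 76.5 to 99.8 on the uncultured arrays and 149 to 299 on the culture arrays. The ratio of 3' to 5' signal, which grows as RNA breaks or is copied short, was 2.02 to 4.52 for Actb on the uncultured arrays and 6.81 to 24.4 on the culture arrays, and for Gapdh 3.10 to 5.87 and 9.73 to 17.8. These measures move with culture, and their part in the culture differences was not tested. In bulk tissue, fewer replicating cells and less RNA per cell cannot be told apart. Of the lung mesenchyme markers, all 10 of 10 were measured, and 7 fell and 1 rose in control culture against stalk, with a summed signal of 42170 and 45320 in stalk and 24780 and 39890 in control culture. Markers of other cell types moved too, as given below beside the cell cycle lists.

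Replication genes were lower after culture. In control culture against stalk, 11 of the 47 genes fell and 0 rose (limma, adjusted p under 0.05), where 9.26% of all genes fell and 17.1% rose. The median log2 fold change of the 47 was -0.83, against 0.45 over all genes tested, which is -1.28 relative to that shift, and 40 of the 47 lay below 0 (38.5% of all genes). In 37 of the 47 both control culture arrays lay below both stalk arrays, a pattern shown by 25.4% of all genes, and in 4, Orc1, Pold1, Rfc2 and Tyms, both lay above (46.1% of all genes). With 1 stalk or control culture array left out, the median of the 47 stayed between -1.07 and -0.58. The number of calls changed widely with the array left out, and why it changed was not tested. With each array centred on its median 31 of the 47 fell and 0 rose, and over all genes the split of 2759 higher and 1492 lower became 341 and 4072, or 564 and 685 after quantile normalization.

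In Wnt1 culture against the same stalk arrays, 12 of the 47 genes fell and 0 rose, where 6.88% of all genes fell and 9.35% rose. The median was -0.65, against 0.35 over all genes, -0.99 relative to it, and 38 of the 47 lay below 0 (39.8% of all genes). Both Wnt1 arrays lay below both stalk arrays in 31 genes (25.5% of all genes) and above in 3, Orc1, Orc3 and Rfc2 (41.5% of all genes). Without stalk replicate 1 there were 0 calls, without stalk replicate 2 there was 1, and without Wnt1 culture replicate 1 there were 2. Over all genes the split was 1506 higher and 1109 lower, which became 238 and 2821 with median centring and 311 and 362 after quantile normalization. The control and Wnt1 comparisons share their stalk arrays, so their values are set side by side below and are not separate evidence.

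**Figure D1:**
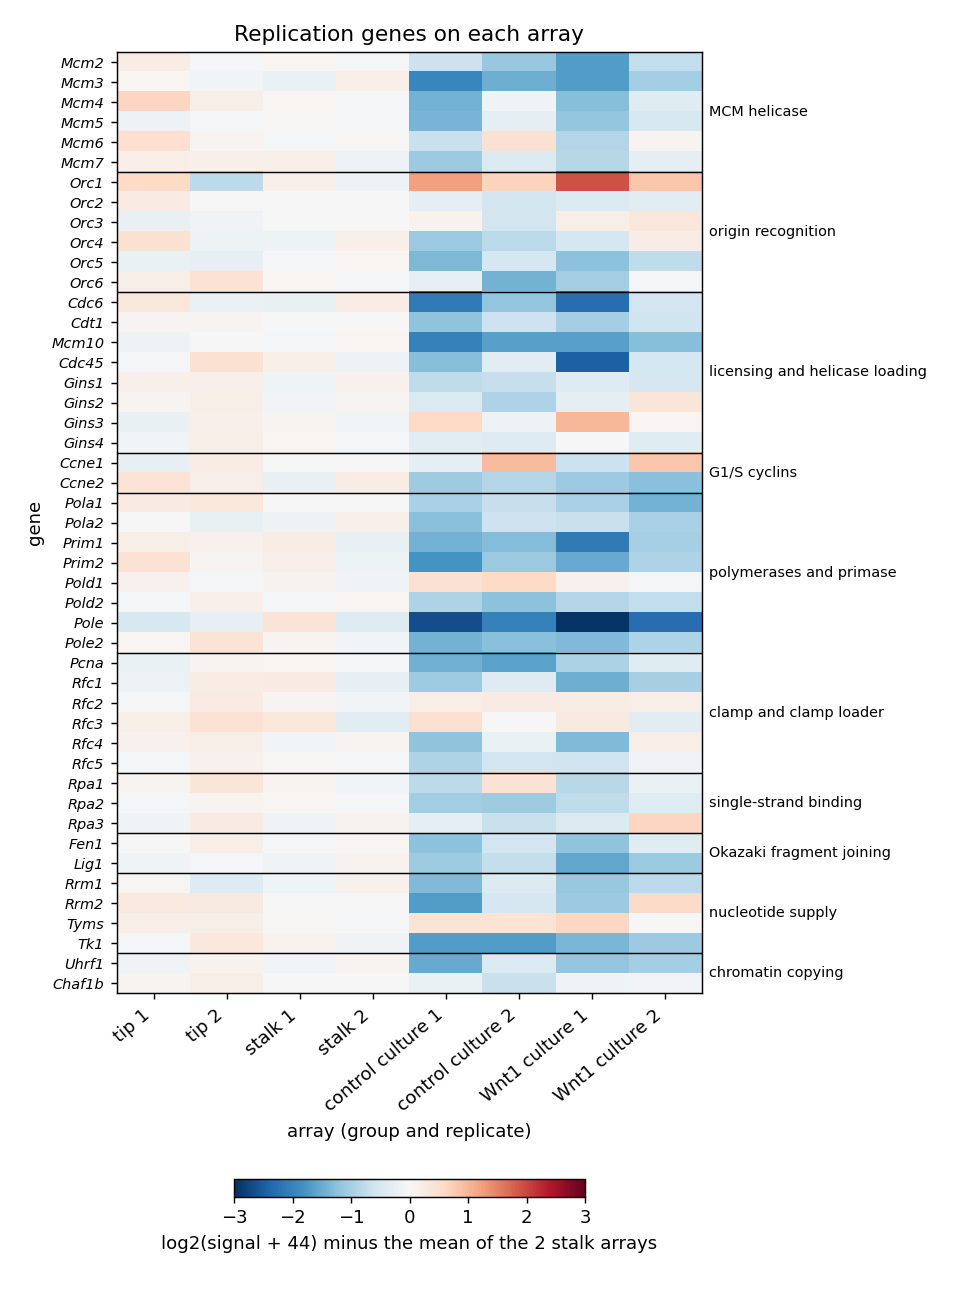
Log2(signal + 44) of the 47 measured genes (rows, grouped by role) on each of the 8 arrays (columns), minus the mean of the 2 stalk arrays; blue is lower and red higher. The 4 culture columns are mostly blue, with medians of -1.07 and -0.58 in control culture and -0.98 and -0.36 in Wnt1 culture, and the tip columns are pale, with medians of 0.07 and 0.15.

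The 4 culture arrays were not equally low. Control culture replicate 1 lay below both stalk arrays in 40 of the 47 genes and replicate 2 in 39, and for Wnt1 culture the counts were 39 and 33. Relative to the stalk mean, the median gene stood at -1.07 and -0.58 on the control culture arrays and at -0.98 and -0.36 on the Wnt1 arrays. Within control culture 33 genes were lower on replicate 1 than on replicate 2, and within Wnt1 culture 36 were, whereas the 2 stalk arrays were nearly balanced (22 lower and 25 higher on replicate 1).

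The MCM helicase genes, which encode the 6 subunits of the ring that unwinds DNA, all had log2 fold changes below 0 in both cultures, with medians of -0.80 in control and -0.82 in Wnt1 culture. Mcm3 stood at 5598 and 7315 in stalk, 1623 and 2273 in control culture, and 1972 and 3083 in Wnt1 culture. The culture arrays did not reach the stalk arrays, and Mcm3 fell by 1.71 on the log2 scale in control culture (SE 0.35, n = 2 and 2, limma adjusted p = 0.0102) and by 1.36 in Wnt1 culture (adjusted p = 0.0267). Its other probe sets gave 0.31, -1.81, 0.54 and -1.10 in control culture. The mean of its probe sets did not pass in control or Wnt1 culture (-0.75 and -0.59, limma adjusted p = 0.0687 and 0.156). Without probe sets whose names end in _x_at or _s_at, its Wnt1 value was -1.105 (adjusted p = 0.0509). Mcm2 was at 4133 and 3850 in stalk, 2546 and 1797 in control culture, and 1227 and 2381 in Wnt1 culture. It fell in Wnt1 culture (-1.20, SE 0.37, limma adjusted p = 0.0454, but -0.73 without Wnt1 culture replicate 1), and its difference of -0.89 in control culture did not pass (adjusted p = 0.0882). After quantile normalization the Wnt1 value did not pass either (limma adjusted p = 0.156). Mcm5 read 12920 and 12180 in stalk but 4722 and 10440 in control culture, so its 2 control arrays differed more from each other than the higher one differed from stalk, and its -0.83 did not pass (limma adjusted p = 0.156). Mcm6 overlapped with stalk in both cultures, at 7556 and 7912 in stalk, 4882 and 10630 in control culture and 4167 and 8165 in Wnt1 culture.

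Of the 6 origin recognition genes none passed the threshold, and their medians were -0.62 in control and -0.25 in Wnt1 culture. Orc5 was at 1293 and 1389 in stalk, 502.2 and 914.2 in control culture and 549.7 and 772.5 in Wnt1 culture, with differences of -0.94 and -0.99 (limma adjusted p = 0.0753 and 0.0775). Orc4 was at 741.1 and 935.4 in stalk, 362.4 and 456.5 in control culture and 572.5 and 974.7 in Wnt1 culture, so only its control arrays stood clear of stalk. Orc1, the subunit that binds and hydrolyses ATP with Cdc6 during loading, stood the other way. Its arrays read 279.7 and 220.5 in stalk, 641.9 and 419.7 in control culture and 1059 and 476.8 in Wnt1 culture, with differences of 0.95 and 1.37 that did not pass (limma adjusted p = 0.191 and 0.0871), the former becoming -0.24 with median centring. In Wnt1 culture Orc1 passed as higher in 3 alternatives, which were the replicate number as a block, leaving out Wnt1 culture replicate 2, where it was 1.91, and leaving out both culture arrays numbered 2 (lowest limma adjusted p = 0.0107). Its stalk signals are below 298.6, the highest array median, and its other probe set gave -0.47 and -0.31. That other probe set read higher on every tip and stalk array, at 403.4 and 430.2 in stalk. The chosen one therefore had the highest mean only through its culture arrays.

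Among the 8 genes of licensing and helicase activation, Mcm10 and Cdc6 fell in control culture and Mcm10 fell in Wnt1 culture, with group medians of -0.77 and -0.63. Mcm10, which helps the loaded helicase to fire, was at 1877 and 2061 in stalk, 446.5 and 608.5 in control culture and 603.9 and 787.6 in Wnt1 culture. All 4 culture arrays lay far below stalk, with a log2 fold change of -1.83 in control (SE 0.33, limma adjusted p = 0.00713) and -1.45 in Wnt1 culture (adjusted p = 0.0182). After quantile normalization Mcm10 passed in control (limma adjusted p = 0.0354) but not in Wnt1 culture (-1.24, adjusted p = 0.124). Its other 2 probe sets, at or below 298.6 on average, gave 1.18 and 0.80 in control culture, and the mean over its 3 probe sets gave 0.05. Cdc6, the loader of the MCM ring, was at 1525 and 2091 in stalk, 376 and 761.6 in control culture and 331.9 and 1182 in Wnt1 culture. It fell in control culture (-1.65, SE 0.52, limma adjusted p = 0.0359), and the -1.43 in Wnt1 culture did not pass (adjusted p = 0.0708). After quantile normalization the control value was -1.77 and did not pass either (limma adjusted p = 0.176). Cdt1, the partner of Cdc6, was tighter between replicates and read 11540 and 11270 in stalk, 4935 and 7384 in control culture and 5585 and 7484 in Wnt1 culture, with -0.91 and -0.81 (limma adjusted p = 0.0769 and 0.123). The 4 GINS subunits differed less, from -0.73 for Gins1 to 0.22 for Gins3 in control culture, none past the threshold. Cdc45, the helicase cofactor, gave -0.80 and -1.48 (limma adjusted p = 0.279 and 0.0774), with Wnt1 arrays at 153.9 and 701.

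The 2 cyclin E genes, which drive the step from G1 to S, differed from each other by the probe set with the highest mean. Ccne2 was at 1069 and 1458 in stalk, 574.6 and 660.4 in control culture and 563.1 and 497.9 in Wnt1 culture. It fell in Wnt1 culture (-1.17, SE 0.34, limma adjusted p = 0.0377), and -0.97 in control culture missed the threshold (adjusted p = 0.0514). Quantile normalization took the Wnt1 value to -1.04, which did not pass (limma adjusted p = 0.133). Ccne1 overlapped with its stalk values of 5936 and 5885, at 4859 and 11500 in control culture and 3749 and 10630 in Wnt1 culture, and its differences of 0.34 and 0.10 did not pass (limma adjusted p = 0.622 and 0.903). Replicate 2 stood high in both cultures, and without it Ccne1 gave -0.28 in control and -0.65 in Wnt1 culture. Its other probe set gave -1.07 and -0.70. In the fit without probe sets whose names end in _x_at or _s_at, the -1.07 passed (limma adjusted p = 0.0489) and the -0.70 did not (adjusted p = 0.184).

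Polymerase and primase genes held the most calls, 5 of 8 in each culture comparison, with medians of -1.21 and -1.16. Of the polymerase and primase genes called, only Pole still passed after quantile normalization (limma adjusted p = 0.037 in control and 0.0466 in Wnt1 culture). In other roles Mcm3, Mcm10, Tk1 and Pcna still passed in control culture (adjusted p = 0.0224, 0.0354, 0.0307 and 0.0145). Lig1 and Mcm3 did so in Wnt1 culture (adjusted p = 0.0466 and 0.0468). Pole, the catalytic subunit of the leading-strand polymerase epsilon, was at 2215 and 1268 in stalk, 229.3 and 378.1 in control culture and 180.6 and 311.4 in Wnt1 culture. The highest culture array, 378.1, lay far below the lower stalk array, 1268, and Pole fell by 2.34 in control (SE 0.42, limma adjusted p = 0.00662) and by 2.61 in Wnt1 culture (adjusted p = 0.00501). Replicate 1 of each culture lay below 298.6, and with every signal below 298.6 raised to it the log2 fold changes were -2.18 and -2.30. Its partner Pole2 was at 2707 and 2422 in stalk, 927 and 1048 in control culture and 1003 and 1318 in Wnt1 culture, with -1.34 and -1.12 (limma adjusted p = 0.016 and 0.0366); averaged with its dim second probe set it gave 0.32 in control culture.

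Primase makes the RNA start of each new strand, and both of its subunit genes fell in both cultures. Neither passed in control or Wnt1 culture after quantile normalization (limma adjusted p = 0.126 and 0.0689 for Prim1, 0.0866 and 0.21 for Prim2). From the mean of its probe sets Prim2 gave -0.75 and -0.53 (limma adjusted p = 0.0851 and 0.225). The same mean for Prim1 gave -1.03 in control culture (adjusted p = 0.0598) and -1.28 in Wnt1 culture (adjusted p = 0.044). By its other probe set Prim1 gave -0.70 and -1.01. Prim1 read 5036 and 3674 in stalk, 1578 and 1707 in control culture and 960.5 and 2150 in Wnt1 culture, with -1.37 and -1.55 (limma adjusted p = 0.0258 and 0.0237). Without Wnt1 culture replicate 1 the latter was -0.99 (adjusted p = 0.107). Prim2 read 2648 and 2103 in stalk, 646.6 and 1059 in control culture and 804.6 and 1221 in Wnt1 culture, with -1.46 and -1.21 (limma adjusted p = 0.0176 and 0.0416). For both, the highest culture array stayed below the lower stalk array. Pola1, the catalytic subunit that extends the primer, was at 1526 and 1548 in stalk, 767.9 and 928.5 in control culture and 755.1 and 550.9 in Wnt1 culture, and passed in Wnt1 culture (-1.20, limma adjusted p = 0.0319) but not in control culture (-0.83, adjusted p = 0.0739). Averaged with its dim second probe set, Pola1 gave 0.19 in Wnt1 culture. Pold2, an accessory subunit of the lagging-strand polymerase delta, fell in control culture from 3346 and 3644 to 1807 and 1474 (-1.08, limma adjusted p = 0.0272). The catalytic Pold1 stood apart from the other 7, at 2619 and 2288 in stalk, 3357 and 3725 in control culture and 2699 and 2333 in Wnt1 culture, with 0.52 in control culture (limma adjusted p = 0.208) that became -0.66 with median centring.

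**Figure D2:**
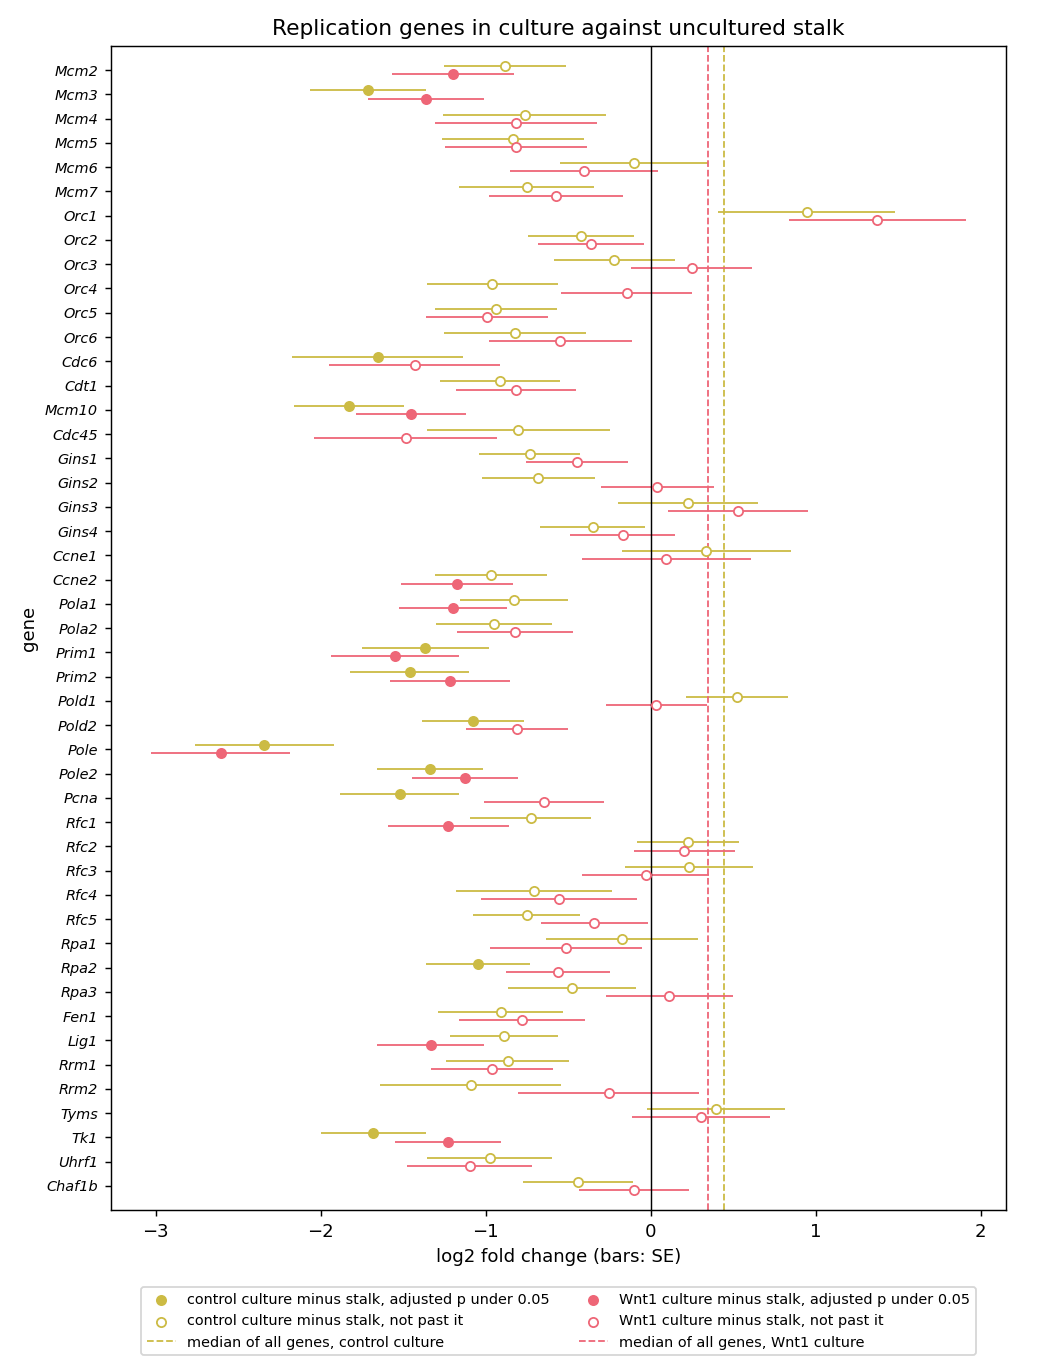
Log2 fold change of each of the 47 genes against uncultured stalk in control culture and in Wnt1 culture, with bars of 1 standard error; filled points passed the adjusted p of 0.05, and the dashed lines are the medians of all genes, 0.45 and 0.35. Filled points, 11 in control and 12 in Wnt1 culture, all lie below 0, and 45 of the 47 genes lie left of the dashed line in each comparison.

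Pcna, the sliding clamp that holds polymerases on DNA, was at 12970 and 12150 in stalk, 4616 and 4085 in control culture and 6531 and 9799 in Wnt1 culture. Both control arrays lay at well under the stalk arrays and the Wnt1 arrays lay between them, so that Pcna fell in control culture (-1.52, SE 0.36, limma adjusted p = 0.0155) while -0.65 in Wnt1 culture did not pass (adjusted p = 0.204). Of the 5 clamp loader genes, Rfc1, the large subunit, fell in Wnt1 culture (2731 and 1928 in stalk, 810 and 1125 in Wnt1 culture, -1.23, limma adjusted p = 0.0413). Its other probe sets gave 0.13 and -1.05 in Wnt1 culture and 0.63 and -0.75 in control culture. In Wnt1 culture the mean of its probe sets gave -0.72 (limma adjusted p = 0.094), and quantile normalization gave -0.91 (adjusted p = 0.168). Rfc1 was at 1067 and 1755 in control culture, -0.73 (adjusted p = 0.146). Rfc2 was nearly level across the 8 arrays, from 2185 on stalk replicate 2 to 2796 on control culture replicate 2, with log2 fold changes of 0.23 and 0.20 (limma adjusted p = 0.583 and 0.638). Rfc3 gave 0.23 in control and -0.03 in Wnt1 culture by its chosen probe set, and -1.75 and -1.08 by its other one. As for Orc1, that other probe set was the brighter on both stalk arrays (1217 and 794.9 against 983.7 and 610.2) and the dimmer on every culture array.

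RPA coats single-stranded DNA at the fork. Rpa2 read 4612 and 4274 in stalk, 2149 and 2106 in control culture and 2587 and 3465 in Wnt1 culture, and fell in control culture (-1.05, SE 0.31, limma adjusted p = 0.0316) but did not pass in Wnt1 culture (-0.56, adjusted p = 0.206). Quantile normalization took its control value to -0.60, which did not pass (limma adjusted p = 0.157). Rpa1 and Rpa3 gave -0.17 and -0.48 in control culture, neither past the threshold. The other Rpa1 probe set, above 298.6 on all 8 arrays, gave -1.65 in control and -1.50 in Wnt1 culture. For Okazaki fragments, Lig1, the ligase that seals them, was at 5044 and 5911 in stalk, 2586 and 3307 in control culture and 1837 and 2491 in Wnt1 culture. Its fall passed in Wnt1 culture (-1.33, limma adjusted p = 0.0224), and -0.89 in control culture missed the threshold (adjusted p = 0.059). Fen1, the nuclease that trims the fragments, was at 6536 and 7198 in stalk, 2884 and 4564 in control culture and 2963 and 5320 in Wnt1 culture, with -0.91 and -0.78 (limma adjusted p = 0.0881 and 0.152).

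In nucleotide supply, Tk1, the S-phase thymidine kinase, had nearly equal control culture arrays. It read 3000 and 2576 in stalk, 835.4 and 836.2 in control culture and 1044 and 1291 in Wnt1 culture, and fell by 1.68 (SE 0.32, limma adjusted p = 0.00804) and by 1.23 (adjusted p = 0.0268). After quantile normalization Tk1 passed in control (limma adjusted p = 0.0307) but not in Wnt1 culture (-0.83, adjusted p = 0.134). Rrm2, the regulated subunit of ribonucleotide reductase, was at 17740 and 18080 in stalk, 5587 and 12550 in control culture and 8395 and 26790 in Wnt1 culture. Its Wnt1 arrays lay on either side of stalk, and neither -1.09 in control nor -0.25 in Wnt1 culture passed (limma adjusted p = 0.145 and 0.748); without Wnt1 culture replicate 1 the latter became 0.58. Rrm1, the large subunit, gave -0.87 and -0.96 (limma adjusted p = 0.0952 and 0.0852). Tyms, which makes thymidylate, lay near 298.6 on most arrays, at 293.3 and 277.4 in stalk, 385.5 and 393.7 in control culture and 462.7 and 282.9 in Wnt1 culture, and its 0.40 and 0.31 did not pass (limma adjusted p = 0.478 and 0.605) and turned to -0.27 and -0.11 after quantile normalization.

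The last role is the copying of chromatin. Uhrf1, which brings the maintenance methyltransferase to new DNA, was at 2185 and 2469 in stalk, 780.3 and 1710 in control culture and 1004 and 1123 in Wnt1 culture, all 4 below stalk, with -0.98 and -1.10 (limma adjusted p = 0.0694 and 0.0621). Chaf1b, the measured subunit of CAF-1, was at 948.8 and 981.5 in stalk, 828.5 and 590 in control culture and 880.2 and 913.1 in Wnt1 culture, a smaller difference of -0.44 and -0.10 (limma adjusted p = 0.323 and 0.838).

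**Figure D3:**
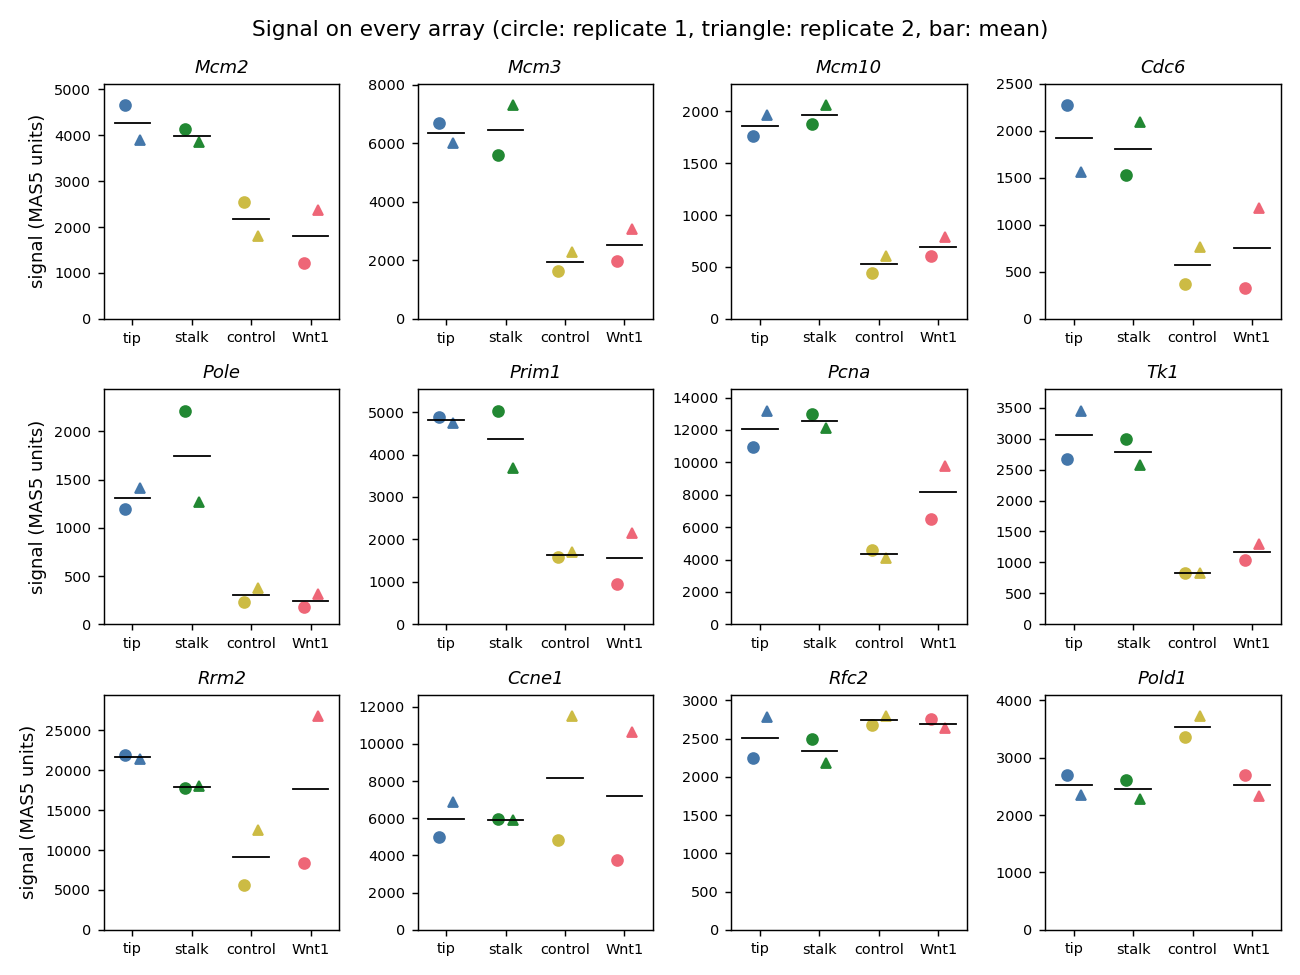
Signal of 12 replication genes on each of the 8 arrays (circle, replicate 1; triangle, replicate 2; bar, the mean of the 2), on a linear axis from 0 in each panel. Mcm3, Mcm10, Pole, Prim1 and Tk1 show culture arrays clear of the uncultured ones, Pcna shows Wnt1 arrays between control culture and stalk, and Rfc2 is nearly level.

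Between the uncultured tissues the replication genes were close. In tip against stalk 0 of the 47 genes passed (0% of all genes; smallest adjusted p = 1 by limma), and 0 had an unadjusted p under 0.05, against 0.565% of all genes. The median log2 fold change was 0.09, against 0.01 over all genes, with 33 genes above 0 and 14 below (48.7% of all genes lay below) and a range from -0.36 to 0.41. Both tip arrays lay above both stalk arrays in 12 genes, Mcm4, Mcm6, Orc6, Cdt1, Gins1, Gins2, Pola1, Rfc4, Rpa1, Rrm2, Tyms and Chaf1b (18.2% of all genes), and below in Orc3 and Orc5 (16.2% of all genes).

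The sizes were small beside the standard errors. Pola1 was at 1842 and 1951 in tip and 1526 and 1548 in stalk, a difference of 0.30 (SE 0.33). Rrm2 was at 21850 and 21460 in tip against 17740 and 18080 in stalk, 0.27 (SE 0.55). Mcm4 had the widest gap, 24910 and 17840 in tip against 16600 and 15110, 0.41 (SE 0.49), and -0.03 from its other probe set. Ccne2 overlapped, at 1666 and 1413 against 1069 and 1458, 0.29 (SE 0.34). On the lower side, Pole overlapped at 1197 and 1411 against 2215 and 1268, -0.36 (SE 0.42), and stood at 0.03 without stalk replicate 1. Orc5 gave -0.22 (SE 0.37) and Rrm1 -0.18 (SE 0.37).

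Wnt1 culture and control culture were compared to ask whether WNT1 altered the replication genes beyond culture itself. By limma 0 of the 47 genes passed (0% of all genes; smallest adjusted p = 0.574), and 1, Pcna, had an unadjusted p under 0.05, against 8.05% of all genes. The median was 0.13, against -0.08 over all genes, with 28 genes above 0 and 19 below (55.5% of all genes lay below) and a range from -0.68 to 0.88. Without control culture replicate 1 the median was -0.09, and without Wnt1 culture replicate 2 it was -0.04. Both Wnt1 arrays lay above both control arrays in 9 genes (10.1% of all genes) and below in 4 (15.9% of all genes).

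The 9 were Pcna, Orc4, Gins2, Rpa2, Orc3, Tk1, Chaf1b, Gins1 and Pold2. Pcna had the largest difference, with control arrays at 4616 and 4085 and Wnt1 arrays at 6531 and 9799 (0.88, SE 0.36, limma adjusted p = 0.574). Orc4 was at 362.4 and 456.5 in control and 572.5 and 974.7 in Wnt1 culture (0.81, SE 0.39, limma adjusted p = 0.632). For Gins2, a subunit of the GINS complex, the arrays read 1897 and 1324 in control and 2087 and 3341 in Wnt1 culture (0.72, SE 0.34, limma adjusted p = 0.625). In each of the 3 genes Wnt1 culture replicate 2 was the farther of the Wnt1 pair from the control arrays.

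The 4 that lay lower with WNT1 were Pold1, Lig1, Pola1 and Ccne2. Pold1 was at 3357 and 3725 in control and 2699 and 2333 in Wnt1 culture (-0.49, SE 0.31, limma adjusted p = 0.732), and Lig1 at 2586 and 3307 against 1837 and 2491 (-0.44, SE 0.33, limma adjusted p = 0.784). Rfc1 overlapped between the cultures (-0.50, SE 0.37). Rrm2 differed by 0.84 (SE 0.55, limma adjusted p = 0.746), with its pairs of 5587 and 12550 and of 8395 and 26790 overlapping.

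**Figure D4:**
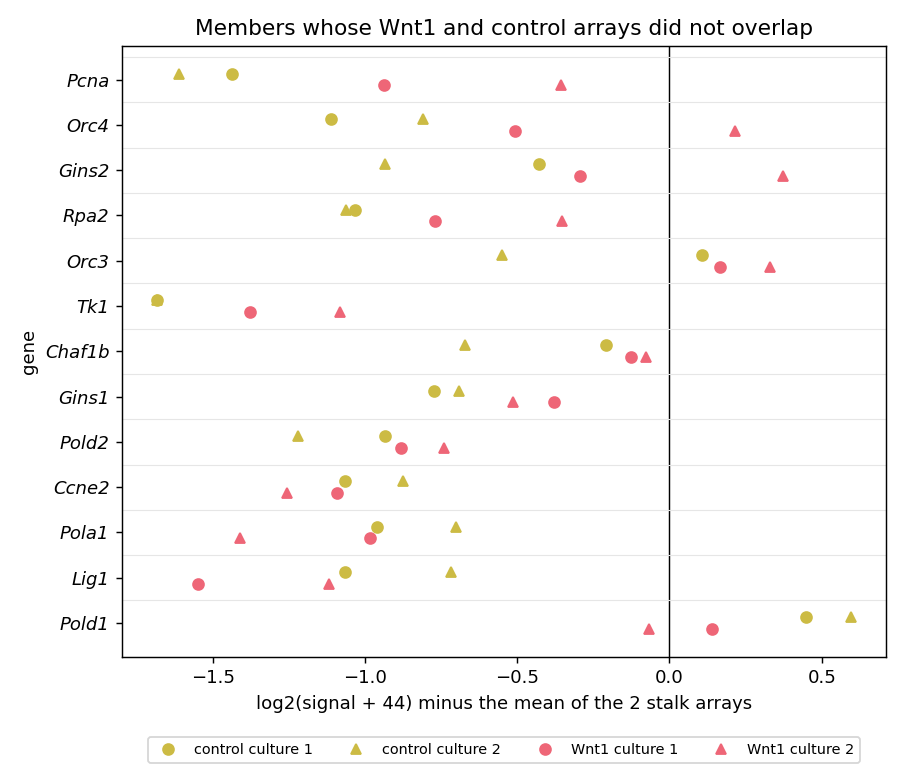
Log2(signal + 44) minus the stalk mean on the 4 culture arrays, for the 13 genes whose 2 Wnt1 arrays (red) and 2 control culture arrays (yellow) did not overlap, ordered by their difference; the vertical line at 0 is stalk. In 9 genes, with Pcna at the top, the Wnt1 arrays lie to the right, and in 4, with Pold1 at the bottom, to the left, while none of the 13 passed the threshold.

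Partner genes outside the 47 were counted in the same comparisons, where 9.26% of all genes fell and 17.1% rose in control culture and 6.88% fell and 9.35% rose in Wnt1 culture. All list counts that follow are to be read against these shares. Of 15 licensing, firing and checkpoint partners, 8 fell and 0 rose in control culture (median -1.19), and 5 fell and 0 rose in Wnt1 culture (median -1.22). Dbf4, the activator of the Cdc7 kinase that fires origins, was at 4853 and 5021 in stalk, 1326 and 1415 in control culture and 1648 and 1791 in Wnt1 culture (-1.82 and -1.50, limma adjusted p = 0.00525 and 0.012), although the mean over its probe sets gave 0.50 in control culture. Topbp1, a firing and checkpoint scaffold, gave -2.55 and -1.75 (adjusted p = 0.00306 and 0.0121). Atr, the checkpoint kinase, gave -2.04 in control culture (adjusted p = 0.00984). Timeless, a fork protection factor, was at 2238 and 2461 in stalk and at 84.72 and 616.3 in Wnt1 culture, a difference of -3.04 (limma adjusted p = 0.0094). Without Wnt1 culture replicate 1, the lower array, it was -1.86, and without replicate 2 it was -4.22.

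Of 17 other replisome and repair partners, 7 fell and 2 rose in control culture (median -0.70), and 5 fell and 0 rose in Wnt1 culture (median -0.86). Top1, which relaxes DNA ahead of the fork, gave -2.04 and -1.77, but -0.35 and -0.75 from the mean of its probe sets (limma adjusted p = 0.494 and 0.175), and Msh6, a mismatch repair protein, gave -2.05 and -1.38. Dscc1, part of an alternative clamp loader, gave -2.11 in control culture and 0.28 from the mean of its probe sets. Of 11 chromatin copying partners 7 fell and 0 rose in control culture (median -1.19), and 5 fell in Wnt1 culture (median -0.62). They include the histone chaperone Nasp (-1.56 and -1.40) and the heterochromatin protein Cbx5 (-1.32 and -2.20). The histone messenger RNA binding protein Slbp gave -1.56 in control culture. Without probe sets whose names end in _x_at or _s_at, which may bind more than 1 transcript, Nasp gave 0.53 in control culture.

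Of 12 further genes of nucleotide supply 2 fell and 2 rose in control culture (median -0.32), counts near the shares over all genes, and 3 fell and 2 rose in Wnt1 culture (median -0.40). The 2 that rose in each were Samhd1, which breaks down deoxynucleotides and is abundant in macrophages (3.41 and 2.87), and Shmt1, a folate enzyme (2.66 and 2.22). Samhd1 gave -0.10 in control culture from a probe set without those suffixes. The mean of its probe sets took Shmt1 to 0.35 and 0.18 (limma adjusted p = 0.373 and 0.673), and without Wnt1 culture replicate 1 its Wnt1 value was 1.37 (adjusted p = 0.12). Cad, an enzyme of pyrimidine synthesis, fell in control culture (-1.39), and Umps, another, fell in Wnt1 culture (-1.66).

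Of 15 E2F and Rb family genes 5 fell and 1 rose in control culture (median -0.86), and 4 fell and 1 rose in Wnt1 culture (median -0.72). E2f1, an activator of replication genes, was at 636.2 and 422.9 in stalk, 916.7 and 893.9 in control culture and 1241 and 864.8 in Wnt1 culture, with 0.75 and 0.94 (limma adjusted p = 0.133 and 0.0864), and turned to -0.43 and -0.04 with median centring. E2f3, another activator, fell (-1.49 and -1.39, adjusted p = 0.0139 and 0.0225). E2f6, a repressor, fell in control culture (-1.79), and Rbl1, the Rb relative p107, fell in Wnt1 culture (-2.02) with 0.24 from the mean of its probe sets and -1.01 without Wnt1 culture replicate 1 (limma adjusted p = 0.147). E2f5 gave -2.16 and -1.81 but 2.49 and 2.16 from a probe set without those suffixes.

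Of 15 cyclins, kinases and inhibitors 6 fell and 1 rose in control culture (median -0.89), and 3 fell and 1 rose in Wnt1 culture (median -0.52). The one that rose was Cdkn1a, which encodes p21, an inhibitor of cyclin-dependent kinases and of PCNA. It read 236.3 and 300.7 in stalk, 1507 and 5369 in control culture and 1948 and 13080 in Wnt1 culture, with 3.22 and 4.04 (limma adjusted p = 0.0132 and 0.00808), and replicate 2 was the higher in both cultures. Without Wnt1 culture replicate 2 the latter was 2.68 (adjusted p = 0.0151). Ccnd2, a D-type cyclin, fell from 11410 and 11630 to 2703 and 3048 in control and 3774 and 2913 in Wnt1 culture (-1.99 and -1.78, limma adjusted p = 0.00525 and 0.00872). Its relative Ccnd1 gave -1.50 and -1.90 (adjusted p = 0.0162 and 0.00981).

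Of 29 genes of mitosis and cytokinesis 15 fell and 0 rose in control culture (median -1.35), and 13 fell and 0 rose in Wnt1 culture (median -1.11). Kif20a, a cytokinesis motor, was at 1967 and 2564 in stalk, 219.8 and 419.7 in control culture and 962 and 1147 in Wnt1 culture (-2.71 and -1.07, limma adjusted p = 0.00249 and 0.0609). The proliferation marker Mki67 was at 6997 and 6793 in stalk, 1481 and 4944 in control culture and 1127 and 1770 in Wnt1 culture, and passed in Wnt1 culture (-2.25, limma adjusted p = 0.0139) but not in control culture (-1.33, adjusted p = 0.0537). Top2a, the mitotic topoisomerase, fell in both (-1.83 and -1.75, adjusted p = 0.0137 and 0.0205). Of the 114.0 genes of these 7 lists, 0 passed in tip against stalk by limma (2.0 at an unadjusted p under 0.05), and 0 passed in Wnt1 against control culture (9.0 at an unadjusted p under 0.05, smallest adjusted p = 0.552).

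Cell type markers moved with culture as well, and their part in the fall of replication genes was not tested. In control culture against stalk, 5 of 6 smooth muscle markers rose, with a summed signal of 4451 and 5643 in stalk, 125300 and 110200 in control culture and 149300 and 178700 in Wnt1 culture. Of 8 macrophage markers 4 rose (3756 and 4345 in stalk, 11700 and 21080 in control culture), and of 8 epithelial markers 2 rose (1733 and 1507 in stalk, 4881 and 5430 in control culture). Of 7 measured endothelial markers 4 fell (7587 and 8819 in stalk, 1614 and 1946 in control culture). Of 5 erythroid markers 3 fell and 1 rose, while their summed signal was higher in culture, at 78090 and 48160 in stalk, 333500 and 145900 in control culture and 230800 and 128200 in Wnt1 culture. In control culture 1 of 6 mesothelial and 1 of 4 neuronal and neural crest markers rose, and none of these 3 lists had any other call in that comparison. In Wnt1 culture 5 smooth muscle, 4 macrophage and 1 epithelial marker rose, and 3 endothelial and 6 lung mesenchyme markers fell. In the same comparison 2 erythroid markers fell, and 1 mesothelial and 1 neuronal and neural crest marker rose. Summed signals on the Wnt1 arrays were 10160 and 8988 for macrophage, 4390 and 12450 for epithelial and 1858 and 890.2 for endothelial markers. The summed signal of no list was 0 on any array.

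Several genes have more than 1 probe set, and these did not always agree. In 35 of the 47 genes more than 1 probe set passed the filter, giving 53 besides the one with the highest mean, which stood for the gene. In control culture against stalk 30 of the 53 had the sign of the chosen one and 23 the other sign. The 35 whose mean signal exceeded 298.6 had a median of -0.75, with 26 below 0, and the 18 at or below it had a median of 0.99, with 4 below 0. Dim probe sets lay mostly above 0, as did the median of all genes, 0.45, and bright ones mostly below.

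In 12 genes the chosen probe set ends in _x_at or _s_at and another, above 298.6 and without that suffix, is present. The other gave a lower log2 fold change in all 12 in control culture, with a median of -1.64 against -0.76, and in 10 of the 12 in Wnt1 culture, with a median of -1.09 against -0.57. For Mcm4 the 2 probe sets gave -2.27 and -0.76, the former from 7045 and 6377 in stalk and 1162 and 1576 in control culture. Rrm2 gave -2.41 (5832 and 7507 in stalk, 977.5 and 1498 in control culture) against -1.09, and Fen1 gave -2.39 against -0.91. Mcm6, Ccne1 and Pold1, which overlapped with stalk or lay above it by the chosen probe set, gave -1.39, -1.07 and -0.27. With all such probe sets left out, 21 of the 47 genes fell in control culture in place of 11, and 12 fell in Wnt1 culture. In the opposite sense, Cdc45 read 49.39 and 80.95 in stalk and 878.6 and 541.5 in control culture by its second probe set, a log2 fold change of 2.77 against -0.80 by the chosen one.

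**Figure D5:**
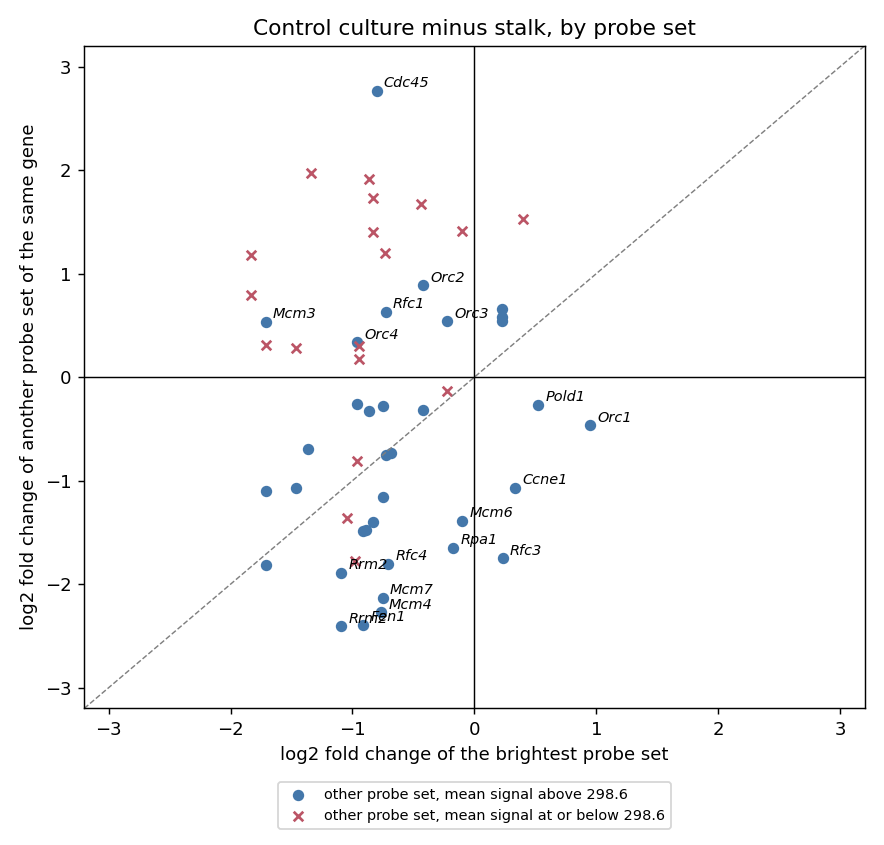
Log2 fold change in control culture against stalk of each of the 53 further probe sets (vertical axis) against that of the chosen probe set of the same gene (horizontal axis); circles have a mean signal above 298.6, crosses at or below it, and the dashed line marks equal values. Crosses lie mostly above 0, with a median of 0.99, and circles mostly below, with a median of -0.75.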

How the data were processed

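RNA from dissected mesenchyme was amplified with a 2-cycle cDNA kit and biotin-labelled for Affymetrix arrays, per the labels' protocols. The deposited values are linear intensity, made by the authors with MAS5 in Affymetrix Expression Console, per the submitters' processing notes, with versions not given in the sources used here. Detection calls were not used here. Of 45101 probe sets, 64 controls were left out and 34945 have 1 gene symbol. Probe sets above 96.59 (the 40th percentile) on at least 2 arrays were kept, and the one with the highest mean over all 8 arrays, cultures included, stood for its gene. Values were taken as log2(signal + 44), 44 being the 25th percentile, which understates changes of dim genes, and 1 limma model (3.58.1, R 4.3.3; lmFit, eBayes with intensity trend) with 4 group means and no covariates took in all 8 arrays. P-values were two-sided and adjusted by Benjamini-Hochberg over 16112 genes, with a threshold of 0.05. An exact permutation test of 2 against 2 cannot go below 0.33 and none was run. The fit was tested on simulated data.

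The genes and lists were chosen with earlier results of these data known, so lists are described by counts and medians and not tested. Statistics are given for up to 12 genes with the smallest p per comparison and direction, 3 where fewer pass; signals for up to 4 genes of each role; 3 genes from each partner list; and always Mcm2, Pcna, Ccne1, Rrm2, Mki67, Top2a, E2f1 and Cdkn1a. Other genes were named after their values were seen. Alternatives changed the pseudocount, filter, normalization, low signal, variance model, probe sets, arrays and threshold. Plots used Python 3.11.15 and matplotlib 3.10.9.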

Additional observations from a re-analysis of the deposited data

How the results depend on the processing

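In the 19 alternatives for each culture comparison against stalk, the median of the replication genes stayed below 0 and below the median of all genes, from -2.02 to -0.56 in control and from -1.63 to -0.36 in Wnt1 culture. It moved beyond the replicate spread to -0.56 with quantile normalization and -2.02 with median centring (control), and to -1.63 with median centring (Wnt1). In tip against stalk it moved to 0.010 with median centring and to 0.14 with the mean of all probe sets, and was 0.047 to 0.15 when 1 array was left out. Counts of genes past the threshold moved more. For control culture, 11 became 31 with median centring, 7 without the intensity trend, 17 with the mean of probe sets (16 lower, 1 higher), 21 without _x_at and _s_at probe sets, 24 at an adjusted p under 0.10, and 20 (1 of them higher) or 33 without both culture arrays numbered 1 or 2. For Wnt1 culture, 12 became 4 with quantile normalization, 2 with a floor at 298.6, 3 without the trend, 6 with array weights, 19 at 0.10 (1 higher), and 35 (2 higher) without both culture arrays numbered 2. Wnt1 against control culture gave 0 genes, but 4 or 1 without both culture arrays numbered 1 or 2. Leaving out 1 array gave 0 to 21 genes for control culture and 0 to 18 for Wnt1 culture (1 of the 18 higher). With 1 array left in a group, its spread is assumed to be that of the other groups. The cause of these changes was not tested. Of the 47 genes 43 stood above 298.6 on all 8 arrays and 4 did not, and the part of low signal in the calls was not tested. Leaving out both culture arrays of a number, except for the count in control culture, was chosen after seeing the data.

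The replicate number as a block gave 14 genes in control and 16 in Wnt1 culture (15 lower, 1 higher). Same-numbered replicate differences correlated at 0.14, 0.15 and 0.30 among stalk and the 2 cultures and at -0.08 to 0.053 with tip, and with 2 arrays a group the numbers were not taken to pair the samples. By number, 21 of the 47 genes were higher and 11 lower with WNT1 on both arrays.

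Signs of single genes turned as follows. With quantile normalization, Tyms went to -0.27 (control) and -0.11 (Wnt1). With median centring, control values became -0.24 for Orc1, -0.66 for Pold1, -0.79 for Tyms, -0.43 for E2f1 and -0.85 for Ccne1, and Wnt1 values -0.45 for Gins3, -0.68 for Tyms, -0.045 for E2f1 and -0.89 for Ccne1. With the mean of probe sets, Rrm1 became 0.19 in tip; control values became 0.049 for Mcm10, 0.32 for Pole2, 0.50 for Dbf4, 0.28 for Dscc1 and -0.37 for Ccne1; Wnt1 values became 0.11 for Mcm10, 0.19 for Pola1, 0.24 for Rbl1 and -0.30 for Ccne1. Without _x_at and _s_at probe sets, Mcm4 became -0.030 in tip; control values became -0.27 for Pold1, -0.10 for Samhd1, 0.53 for Nasp, 2.49 for E2f5 and -1.07 for Ccne1; Wnt1 values became 2.16 for E2f5 and -0.70 for Ccne1. With 1 array left out, tip minus stalk ran from -0.38 to 0.030 for Rrm1 and from -0.75 to 0.035 for Pole, Ccne1 from -0.28 to 0.96 (control) and from -0.65 to 0.84 (Wnt1), and in Wnt1 culture Tyms from -0.010 to 0.62 and Rrm2 from -1.09 to 0.58. Without both culture arrays numbered 1, Tyms was at -0.010 and Rrm2 at 0.58 in Wnt1 culture, and without both numbered 2, Ccne1 was at -0.28 (control) and -0.65 (Wnt1).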
